A study of Mus musculus with 32 samples.

Results

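The mitochondrial solute carriers of family SLC25 were followed in the frontal cortex (FCtx) of mice that drank ethanol and of control mice. Members were taken by symbol alone, as every probe of the array whose gene symbol is Slc25a followed by a number, which gave 59 probes of 40 genes among the 25697 probes and 18138 symbols of the array. That rule uses no measured value, but the members were chosen with earlier results of these data known. Each of 32 mice gave 1 Illumina MouseRef-8 v2.0 array, a slide on which a probe of 50 bases is read by many beads, here a median of 39 beads per SLC25 probe and array and never fewer than 18. Total RNA of a dorsal section of the FCtx was labelled, so values describe a mixture of cell types, in which fewer cells of a type and less RNA per cell cannot be told apart.

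All mice were females of the labelled F1 strain C57BL/6J x FVB/NJ. The 20 ethanol-treated mice had chosen between 20% ethanol and water in daily limited sessions in the dark over 20 days, and the drink of the 12 matched control mice is not given in the sources used here. Each ethanol-treated mouse set its own intake. Arrays lay on 4 chips of 8. Chips 1 and 2 held 8 ethanol-treated mice each, chip 4 held 8 controls, and chip 3 held 4 of each. The 8 arrays of a chip are lettered A to H, of which A, C, E and G are referred to as odd and the rest as even. On chip 3 every ethanol-treated mouse lay at an odd and every control at an even position. Treatment can therefore be compared within a chip only on chip 3, and there not apart from position. Between chips 1 and 2 and chip 4, treatment and chip cannot be told apart. Every mouse has a number of its own, and no label says that mice were sampled together. The p-values measure the spread between these mice, and fits that leave chip out take no account of what arrays of a chip share.

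Most SLC25 carriers are small proteins of the inner mitochondrial membrane, and many exchange a metabolite of the matrix for one of the cytosol. They supply the matrix with ADP, phosphate, dicarboxylates, amino acids, nucleotides, cofactors and iron, and they return ATP and citrate. In the brain they are known for the malate-aspartate shuttle, which brings reducing equivalents from glycolysis to the respiratory chain of neurons, and for supplying ATP at synapses.

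Between 9480 and 11544 of all probes were detected per array, the lowest on the array of control mouse C66, and between 31 and 38 of the 59 SLC25 probes, also lowest there. Arrays correlated with each other at 0.974 to 0.995, and none of the 496 pairs held identical values. Within a chip and treatment, the SD between mice of an SLC25 probe was 0.101 at the median, in log2 units (0.0736 to 0.186), against 0.112 over all tested probes. The 95% interval of an SLC25 difference reached a median of 0.084 either side over all arrays and 0.141 on chip 3, so the 1.1-fold change required below (0.138 on the log2 scale) is close to what chip 3 resolves.

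Most probes of the family were read either on nearly every array or on none. At a detection p-value below 0.01 against the negative control beads, 28 of the 59 probes were detected on all 32 arrays, 19 on none and 12 on some. Detection on at least 24 arrays was required for testing, which 35 SLC25 probes of 28 genes met (59.3% of the probes, against 39.6% of all probes of the array). On all arrays, 47.5% of SLC25 probes were detected, against 33.5% of all probes.

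**Figure D1:**
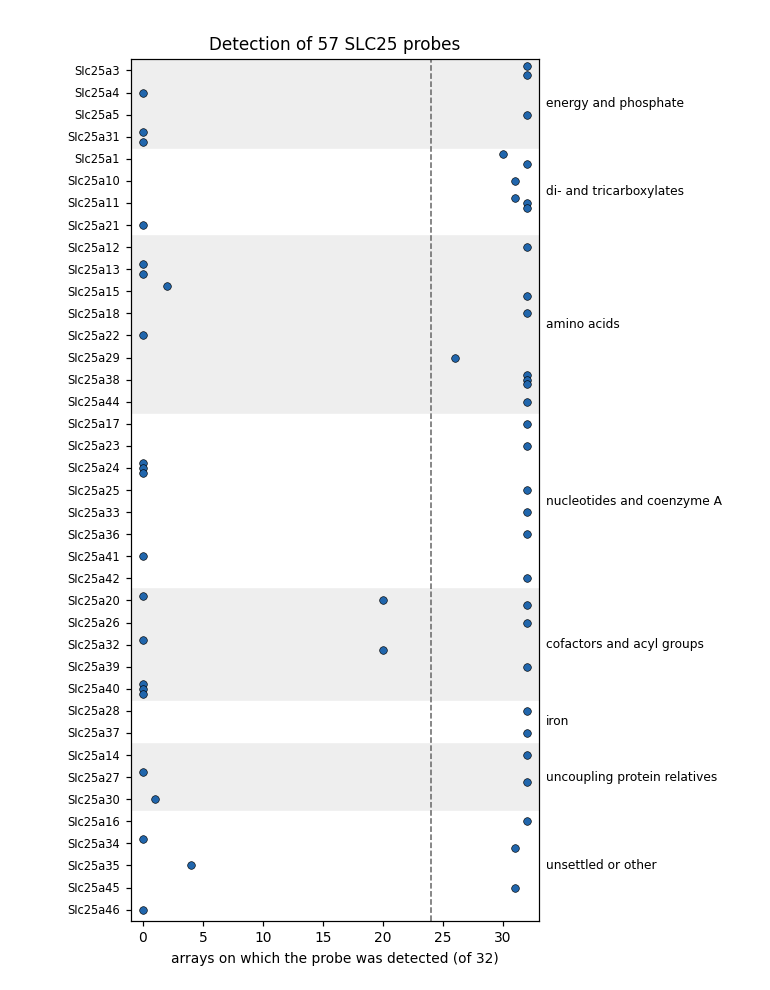
The horizontal axis gives the number of arrays, of 32, on which a probe had a detection p-value below 0.01, each point is 1 of 57 SLC25 probes, rows are 39 genes ordered by what they carry, and the dashed line marks the 24 arrays required for testing. Probes lie at 26 arrays or more or at 20 or fewer, and 19 of them lie at 0.

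The genes that were not tested were 12. No probe was detected on any array for Slc25a13 (aspartate and glutamate), Slc25a21 (oxodicarboxylates), Slc25a22 (glutamate), Slc25a24 and Slc25a41 (ATP-Mg against phosphate), Slc25a31 (an ADP/ATP carrier of the germ line), Slc25a4 (the ADP/ATP carrier known from heart and muscle), Slc25a40 (glutathione) and Slc25a46 (a protein of the outer membrane). Slc25a30, a relative of the uncoupling proteins, was detected on 1 array, Slc25a32, which carries folate, on 20, and Slc25a35 on 4, all of them control arrays.

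A probe that is not detected sets no limit on other parts of its transcript or on the protein. The 24 probes that were not tested had mean signals of 146 to 203 over the arrays, with 158 for Slc25a4. The only probe of Slc25a4 starts at base 1225 of the transcript, and the file gives it no genome position. A probe of Snap25, one of the most abundant transcripts of neurons, was likewise detected on 0 arrays, as was that of Nefl. The other ADP/ATP carrier of the adult body, Slc25a5, was detected on 32 arrays with signals from 3654 to 9654. The first 30 of the 50 bases of both probes, 5′ to 3′ as listed in the array file, are shown because 1 of the pair was read on every array and the other on none.
Slc25a4, base 1225: cacctgattaactgaagaactgatgctgaa
Slc25a5, base 967: atacacataattatgtcctaggtgttctcc

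Ethanol-treated mice and controls were compared over all arrays to ask which carriers differ with drinking. Slc25a28 was higher and Slc25a44 lower in ethanol-treated mice at a false discovery rate (FDR) below 1%, which made 2 of 35 probes (5.71%), against 8.27% of all tested probes. Slc25a44 lay above 1% with normexp background correction (adjusted p = 0.0138), with position as a covariate (0.013), with array weights (0.0127), without mouse C66 (0.0207) and with all probes tested (0.0189), where Slc25a28 stayed below it, and neither passed 1% with median scaling or a chip block. When an FDR of 10% and a difference of 1.1-fold or more were asked for instead, 7 genes were called by 1 probe each (20% of SLC25 probes, against 14.7% of all tested probes). Slc25a11, Slc25a28 and Slc25a36 were higher, 3 probes against 7.54% of all tested probes called higher, and Slc25a14, Slc25a33, Slc25a42 and Slc25a44 lower, 4 probes against 7.16%. The fold differences ran from 1.11 (Slc25a14) to 1.18 (Slc25a44). Slc25a5 (-0.10 on the log2 scale, adjusted p = 0.0446) and Slc25a10 (-0.09, adjusted p = 0.0685) passed the FDR but not the fold. By the brightest probe of each gene, 9 of the 28 genes were higher and 19 lower (67.9% lower, against 53.2% of all genes), and the median size of the difference was 0.05 over SLC25 probes and 0.0593 over all tested probes.

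**Figure D2:**
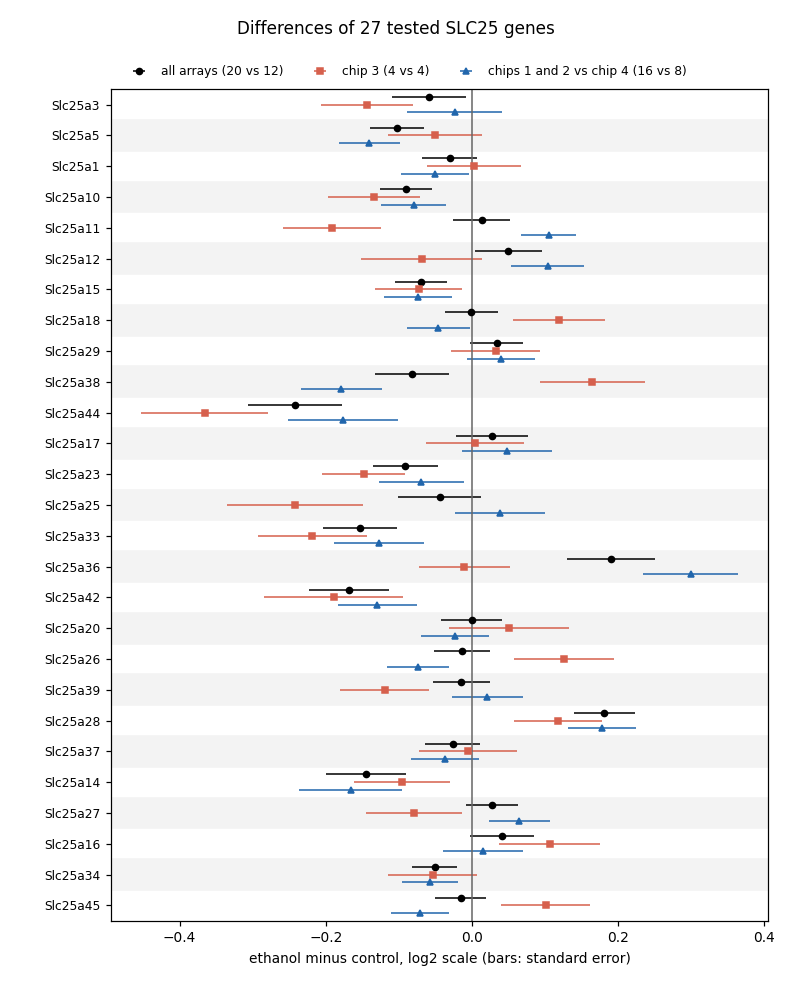
The horizontal axis gives ethanol minus control on the log2 scale with its standard error for the brightest tested probe of each of 27 SLC25 genes, over all arrays (black), on chip 3 alone (orange) and for chips 1 and 2 against chip 4 (blue). Slc25a44 lies to the left in all 3 comparisons and Slc25a28 to the right, whereas Slc25a36, Slc25a38 and Slc25a11 lie apart on chip 3 and between the other chips.

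Taken by what they carry, the amino acid carriers held the largest difference of the 28 genes. Of 8 genes 6 were tested, 1 was called lower and 0 higher, with a median of -0.04, where 8.67% of all tested genes were called lower. The one called was Slc25a44, which carries branched-chain amino acids into mitochondria. Slc25a12 (+0.05), a calcium-regulated aspartate and glutamate carrier of the malate-aspartate shuttle, Slc25a18 (0.00), a glutamate carrier, Slc25a15 (-0.07), the ornithine carrier, Slc25a29 (+0.03), a carrier of basic amino acids, and Slc25a38 (-0.08 by its brightest probe), a glycine carrier needed for haem synthesis, did not pass.

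Slc25a44 ran from 9.41 to 9.90 (median 9.69) in the 20 ethanol-treated mice and from 9.54 to 10.24 (median 9.95) in the 12 controls. All 20 ethanol-treated mice lay below the median of the controls, 3 of them below every control, and 6 controls lay within the range of the ethanol-treated mice. The difference was -0.24 ± 0.065 (SE, adjusted p = 0.00764).

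On chip 3 the Slc25a44 values were 9.64, 9.65, 9.73 and 9.80 with ethanol (mice A46, A47, A49 and A50) and 9.78, 10.24, 10.03 and 10.24 without (C52, C54, C55 and C56). The highest ethanol-treated mouse lay just above the lowest control, and the other 3 lay below all controls. The difference there was -0.37 ± 0.087 (adjusted p = 0.0147), and it stayed between -0.46 and -0.31 and called when any 1 of the 8 arrays was left out. Chips 1 and 2 differed from chip 4 by -0.18 ± 0.075 (adjusted p = 0.0858), and the chip 3 and between-chip differences were not shown to differ (-0.19, 95% interval -0.48 to 0.10).

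The Slc25a44 difference was also set beside position and chip. Odd and even positions of chips 1, 2 and 4 differed by -0.03 (95% interval -0.17 to 0.12). With chip as a fixed block over all arrays Slc25a44 stayed called (-0.37, adjusted p = 0.0836). Treatment varies within a chip only on chip 3, so a fixed block gives the chip 3 difference again, set against the spread within all chips. It is no separate evidence. With chip and position together the difference was -0.34 and no longer passed (adjusted p = 0.416), in a fit that called 0.0491% of all probes. Under median scaling Slc25a44 was at -0.16 (adjusted p = 0.183). Slc25a44 lies on chromosome 3, where RefSeq (GRCm38.p6) has a predicted gene, Gm33513, overlapping it, and whether transcripts of that gene reach the probe was not tested. The probe that read it begins as follows, shown with that of Slc25a28 because these were the members that passed an FDR of 1%.
Slc25a44, base 3251: taaaaggcacccccgtgtcggaactcctac
Slc25a28, base 1461: gacctgctctagactgatgcagaggataag

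Both mitoferrins, which bring iron into the matrix for haem and iron-sulfur clusters, were tested, and the ubiquitous mitoferrin-2 (Slc25a28) was higher while mitoferrin-1 (Slc25a37), known from red cell precursors, did not pass (-0.03, adjusted p = 0.675). Slc25a28 ran from 10.30 to 10.81 (median 10.50) with ethanol and from 10.23 to 10.59 (median 10.32) without. Of the ethanol-treated mice 19 of 20 lay above the control median and 5 above every control. The difference was +0.18 ± 0.042 (adjusted p = 0.00253).

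The Slc25a28 difference passed between chips and did not pass within chip 3. Chips 1 and 2 exceeded chip 4 by 0.18 ± 0.046 (adjusted p = 0.00575). On chip 3 Slc25a28 was 10.30, 10.49, 10.36 and 10.35 with ethanol and 10.24, 10.23, 10.30 and 10.25 without, with 1 ethanol-treated mouse level with the highest control, and the difference of +0.12 (95% interval -0.01 to 0.25) did not pass (adjusted p = 0.22). The chip 3 and between-chip differences of Slc25a28 were not shown to differ (-0.06, 95% interval -0.23 to 0.11). With chip as a block the adjusted p was 0.349, and with median scaling 0.0272.

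Of the nucleotide and coenzyme A carriers 6 genes of 8 were tested, and 1 was called higher and 2 lower, where 16.9% of all tested genes were called in either direction. None of these calls held with chip as a fixed block. Slc25a36 and Slc25a33, which both carry pyrimidine nucleotides used for mitochondrial DNA and RNA, differed in opposite directions. Slc25a42, the coenzyme A carrier, was lower. Slc25a23 (-0.09, adjusted p = 0.15) and Slc25a25 (-0.04), calcium-dependent carriers of ATP-Mg against phosphate, and Slc25a17 (+0.03), which serves peroxisomes, did not pass.

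Slc25a36 ran from 8.67 to 9.28 (median 8.87) with ethanol and from 8.35 to 8.99 (median 8.67) without, and 19 of 20 ethanol-treated mice lay above the control median (+0.19 ± 0.061, adjusted p = 0.0246). Chips 1 and 2 exceeded chip 4 in it (+0.30 ± 0.065, adjusted p = 0.0014). On chip 3 it was 8.91, 8.97, 8.86 and 8.90 with ethanol and 8.99, 8.87, 8.99 and 8.82 without, fully overlapping, and the difference was -0.01 (95% interval -0.14 to 0.12). The controls of chip 3 themselves exceeded the controls of chip 4 by 0.35 ± 0.085 (adjusted p = 0.00467), in a comparison that shares its control arrays with the others, and the chip 3 and between-chip differences did differ (-0.31, adjusted p = 0.0793). With chip as a fixed block, which again takes the difference from chip 3, Slc25a36 was at -0.01 (adjusted p = 0.972).

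Slc25a33 ran from 9.62 to 10.13 (median 9.86) with ethanol and from 9.82 to 10.17 (median 9.97) without, with 16 of 20 ethanol-treated mice below the control median and 9 below every control (-0.15 ± 0.050, adjusted p = 0.0285). On chip 3 it was 9.89, 9.70, 9.76 and 9.91 with ethanol and 9.90, 10.14, 9.92 and 10.17 without. The groups met at 1 mouse of each, and the difference was -0.22 ± 0.075 (adjusted p = 0.0728). The same chip 3 difference did not pass when fitted with chip as a fixed block over all arrays (adjusted p = 0.176). Odd positions of chips 1, 2 and 4, where treatment does not differ within a chip, were lower than even ones by about as much (-0.21 ± 0.039, adjusted p = 0.00156). On chip 3 position and ethanol cannot be told apart for Slc25a33. With position as a covariate over all arrays the difference of -0.10 fell under 1.1-fold (adjusted p = 0.0749). The between-chip difference of Slc25a33 did not reach 1.1-fold (-0.13, 95% interval -0.2525 to -8e-04). On chip 3 the call was lost without mouse A47 (-0.18, adjusted p = 0.193), A49 (-0.20, 0.158), C54 (-0.18, 0.189) or C56 (-0.17, 0.177).

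Slc25a42 ran from 8.11 to 8.58 (median 8.41) with ethanol and from 8.30 to 9.06 (median 8.52) without, with 17 of 20 ethanol-treated mice below the control median (-0.17 ± 0.055, adjusted p = 0.0281). On chip 3 it was 8.58, 8.43, 8.44 and 8.53 with ethanol and 8.52, 8.55, 8.61 and 9.06 without, the last from mouse C56, the highest value of all 32. The difference there (-0.19 ± 0.095) did not pass (adjusted p = 0.216), and without mouse C56 it was -0.06 (adjusted p = 0.606). The between-chip difference did not reach 1.1-fold (-0.13, adjusted p = 0.0829). Odd positions of chips 1, 2 and 4 were lower than even ones in Slc25a42 too, short of 1.1-fold (-0.13, 95% interval -0.23 to -0.04, adjusted p = 0.0501). Over all arrays the call held with position as a covariate (-0.14, adjusted p = 0.0643) and was lost with chip as a fixed block (-0.19, adjusted p = 0.278), as a random block (-0.17, 0.11) and with chip and position (-0.06, 0.913).

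Among the relatives of the uncoupling proteins, Slc25a14, which is abundant in brain, was lower and Slc25a27 (+0.03), another brain member, did not pass. Slc25a14 ran from 9.51 to 10.14 (median 9.87) with ethanol and from 9.84 to 10.33 (median 9.93) without, and 8 ethanol-treated mice lay below every control (-0.14 ± 0.055, adjusted p = 0.0579). On chip 3 the difference was -0.10 (95% interval -0.24 to 0.04). Chips 1 and 2 against chip 4 called Slc25a14 lower (-0.17, 95% interval -0.31 to -0.02). Odd positions of chips 1, 2 and 4 were lower than even ones by 0.23 in this gene (-0.23 ± 0.051, adjusted p = 0.00431). The treatment difference did not pass with position as a covariate (-0.10, adjusted p = 0.15), with chip as a fixed block (-0.10, 0.668) or a random block (-0.13, 0.25), with array weights (-0.12, 0.102) or without mouse C66 (-0.12, 0.139).

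**Figure D3:**
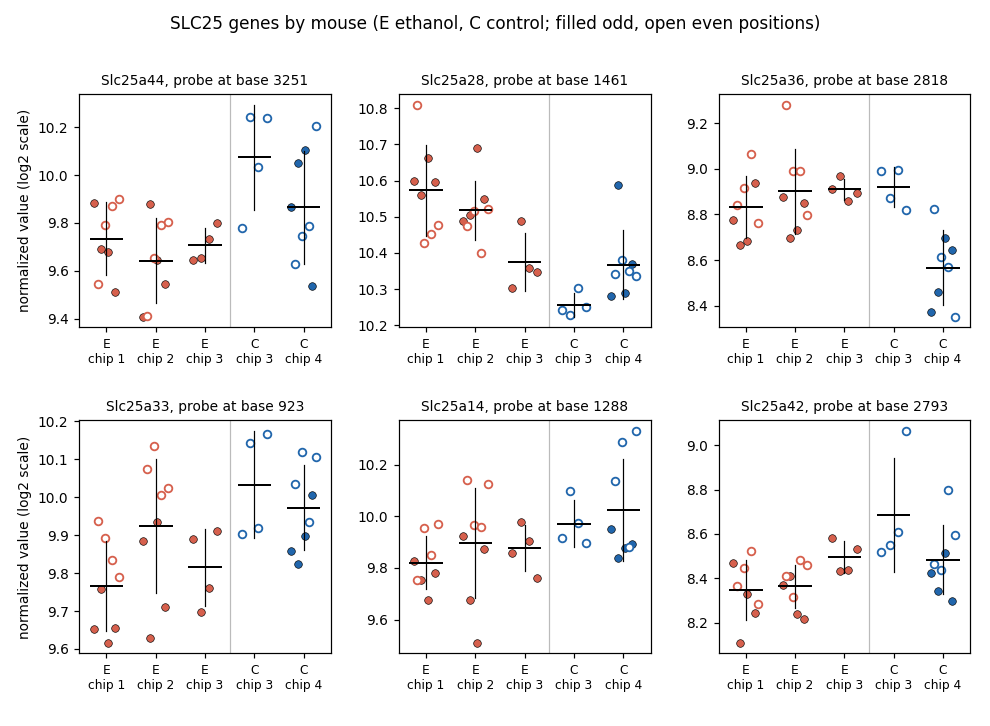
The vertical axis gives the normalized value on the log2 scale of 6 SLC25 genes in each of the 32 mice, by chip and treatment, with filled points at odd and open points at even positions, a bar at the mean of the mice shown and a line of 1 SD either side. Slc25a44 lies lower with ethanol also within chip 3, Slc25a36 lies lowest on chip 4, and in Slc25a33 and Slc25a14 open points tend to lie above filled ones on chips 1, 2 and 4, with overlap.

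The carriers of the respiratory substrates phosphate and adenine nucleotides were called in neither direction over all arrays. Slc25a5, an ADP/ATP carrier, ran from 12.65 to 13.05 (median 12.83) with ethanol and from 12.74 to 13.08 (median 12.95) without, with 19 of 20 ethanol-treated mice below the control median. Slc25a5 was called lower on chips 1 and 2 against chip 4 (-0.14 ± 0.041, adjusted p = 0.0139), whereas chip 3 gave -0.05 (adjusted p = 0.665). The controls of chip 3 (mean 12.82) were themselves called lower in Slc25a5 than those of chip 4 (mean 12.97). That comparison called 20.4% of all tested probes. Slc25a3, the phosphate carrier, has a pair of tested probes that read -0.06 each over all arrays.

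On chip 3 the probes of Slc25a3 lay on opposite sides of 0. The probe at base 755 was 11.78, 11.98, 12 and 11.88 with ethanol and 12.08, 12.02, 12.08 and 12.04 without, so the groups did not overlap (-0.14, adjusted p = 0.152). Odd positions of the other chips were lower in it by a similar amount (-0.21 ± 0.048, adjusted p = 0.00599). The probe at base 1410 was 9.54, 9.38, 9.44 and 9.36 with ethanol and 9.18, 9.22, 9.24 and 9.50 without (+0.14, adjusted p = 0.233), while chips 1 and 2 against chip 4 gave -0.14 (adjusted p = 0.0811), and these differences differed (+0.28, adjusted p = 0.092). The gene interval of Slc25a3 holds Gm24119 in RefSeq.

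Of the di- and tricarboxylate carriers 3 of 4 genes were tested, and Slc25a11 was called higher by 1 of its probes, where 8.33% of all tested genes were called higher. Slc25a1, which exports citrate for lipid synthesis, gave -0.03 by its brighter probe and +0.08 by the other, and Slc25a10, which exchanges malate and succinate for phosphate, gave -0.09. Slc25a11 exchanges oxoglutarate for malate and is a part of the malate-aspartate shuttle. It has 3 tested probes, which read it differently, and their first 30 bases are shown for that reason.
Slc25a11, base 284: gagtggtgaaggggccaagactcgagagta
Slc25a11, base 1291: gcccctggctcttcctgaggagacctaaga
Slc25a11, base 1388: ctctctggggaatccaaggcagagctgagg

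The probe of Slc25a11 at base 284 made the call over all arrays (+0.18 ± 0.049, adjusted p = 0.0115), with 18 of 20 ethanol-treated mice above the control median. Its values ran from 8.21 to 8.62 (median 8.38) with ethanol and from 7.79 to 8.44 (median 8.27) without, and the lowest 1 was mouse C66, without which the difference fell just under 1.1-fold (+0.14, adjusted p = 0.0289). In all, 4 controls lay below every ethanol-treated mouse, and all 4 were on chip 4 (C57, C59, C62 and C66). On chip 3 this probe was 8.62, 8.37, 8.46 and 8.45 with ethanol and 8.27, 8.42, 8.31 and 8.44 without (+0.12, adjusted p = 0.28). Chips 1 and 2 exceeded chip 4 in it by 0.23 (95% interval 0.11 to 0.34). The controls of chip 3 (mean 8.36) also lay above those of chip 4 (mean 8.14). This probe is the dimmest of the 3, with a mean signal of 311 against 852 at base 1388 and 1110 at base 1291. Over all arrays the probe at base 1291 gave +0.01 (95% interval -0.07 to 0.09). That at base 1388 gave +0.11 (95% interval 0.01 to 0.22), under 1.1-fold.

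The probe at base 1388 was called on chip 3 alone among the ethanol comparisons with no block. It was 9.79, 9.79, 9.91 and 9.79 with ethanol and 9.68, 9.38, 9.54 and 9.48 without, so the groups did not overlap (+0.29 ± 0.068, adjusted p = 0.0124), and the call held whichever 1 of the 8 arrays was left out. Chips 1 and 2 against chip 4 gave +0.04 (95% interval -0.09 to 0.16).

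The probe at base 1291, the brightest, read the opposite on the same chip. It was 10.01, 9.97, 10.01 and 10.23 with ethanol and 10.20, 10.30, 10.29 and 10.20 without, with 1 ethanol-treated mouse among the controls (-0.19 ± 0.067, adjusted p = 0.078). That call was lost without mouse A46 (-0.18, adjusted p = 0.156), A47 (-0.16, 0.194), A49 (-0.18, 0.162), C54 (-0.18, 0.169) or C55 (-0.18, 0.179). Chips 1 and 2 against chip 4 gave +0.10 (adjusted p = 0.0406), and the differences differed (-0.30, adjusted p = 0.00716). The gene interval of Slc25a11 on chromosome 11 overlaps that of Rnf167 in RefSeq. Which transcripts the probes share was not tested.

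**Figure D4:**
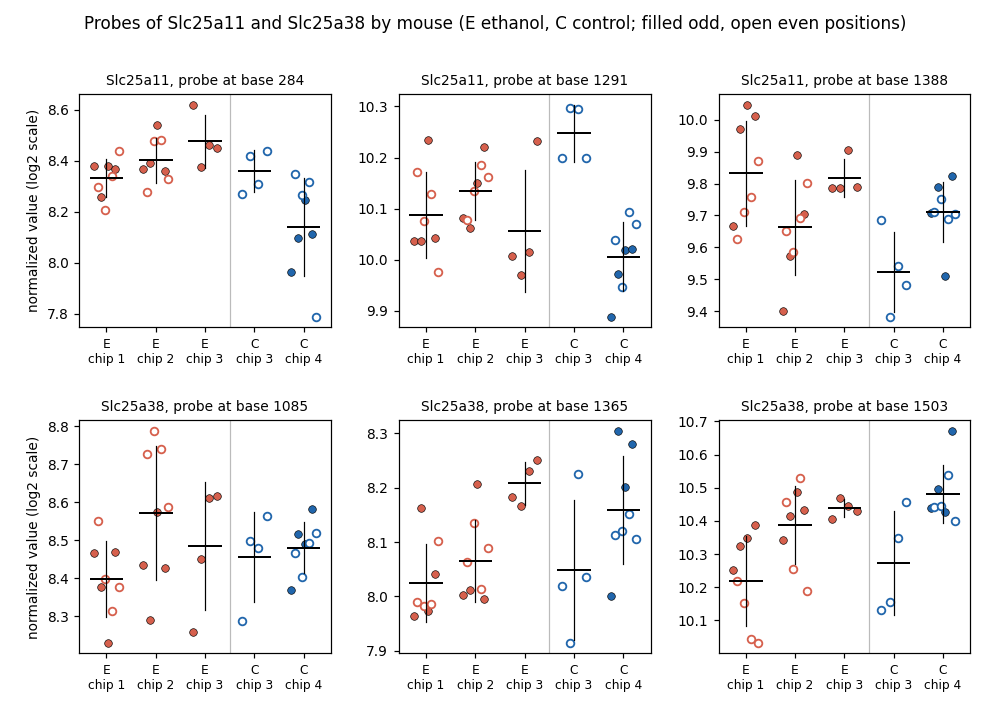
The vertical axis gives the normalized value on the log2 scale of the 3 tested probes each of Slc25a11 and Slc25a38 in each of the 32 mice, by chip and treatment, with filled points at odd and open points at even positions, a bar at the mean and a line of 1 SD either side. On chip 3 ethanol-treated mice lie above controls for Slc25a11 at base 1388 and mostly below them at base 1291.

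Slc25a38, the glycine carrier, was not called over all arrays by any of its 3 probes, and 2 of them differed between chip 3 and the other chips. At base 1503 it was 10.40, 10.47, 10.45 and 10.43 with ethanol and 10.13, 10.15, 10.35 and 10.46 without on chip 3 (+0.17, adjusted p = 0.151), whereas chips 1 and 2 lay below chip 4 (-0.18 ± 0.056, adjusted p = 0.0201). The difference of these was +0.34 ± 0.094 (adjusted p = 0.0165). At base 1365 it was +0.27 (adjusted p = 0.0196), and at base 1085 it was +0.02 (adjusted p = 0.917).

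The cofactor and acyl carriers had no call over all arrays. The log2 difference was 0.00 in Slc25a20 (acylcarnitines) and -0.01 in Slc25a26 (S-adenosylmethionine) and in Slc25a39 (glutathione). Slc25a26 ran from 8.14 to 8.55 with ethanol and from 8.14 to 8.45 without, and it was +0.13 on chip 3 and -0.07 between chips, which differed (+0.20, adjusted p = 0.0963). The gene interval of Slc25a26 overlaps that of Lrig1. Carriers of unsettled substrate, Slc25a16 (+0.04), Slc25a34 (-0.05) and Slc25a45 (-0.02), did not pass.

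Chip by chip, the shares of SLC25 probes called were set beside those of all tested probes. On chip 3, 0 SLC25 probes passed an FDR of 1% (against 3.32% of all tested probes, by limma), with 10 of 35 at an unadjusted p below 0.05 (28.6%, against 26.9%), and 4 probes of 3 genes (Slc25a11 by 2 probes, Slc25a33 and Slc25a44) passed 10% with the fold, 11.4% against 17%. Between chips 1 and 2 and chip 4, 3 probes passed 1% (8.57% against 11.8%) and 8 passed 10% with the fold (22.9% against 23.5%). Groups on chip 3 did not overlap for 3 SLC25 probes of 35, those of Slc25a11 at base 1388, Slc25a3 at base 755 and Slc25a23, against 15.2% of all tested probes. The sign was the same on chip 3 and between chips for 15 of the 28 genes (53.6%, against 50.7% of all genes), and 6 probes of 5 genes differed between these comparisons at an FDR below 10% (17.1%, against 16.1%).

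Comparisons that hold treatment constant also called carriers. Odd against even positions of chips 1, 2 and 4 called 5 SLC25 probes at 10% with the fold (14.3%, against 12.8% of all tested probes), Slc25a14, Slc25a3 at base 755, Slc25a33 and Slc25a25 (-0.16) lower and Slc25a20 (+0.14) higher. The controls of chip 3 differed from those of chip 4 in 8 SLC25 probes (22.9%, against 20.4%). The controls of chip 3 all lay at even positions and those of chip 4 at both, so this comparison mixes chip with position. Ethanol-treated mice of chip 1 and chip 2 differed in 0 (against 3.95%, by limma), with 6 at an unadjusted p below 0.05 (17.1%, against 15.9%). Treatment does vary in the comparison of ethanol with control with chip as a fixed block, which called 3 SLC25 probes (8.57%, against 6.51%). Slc25a44 and Slc25a11 at base 1291 were lower there, and Slc25a11 at base 1388 was higher.

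**Figure D5:**
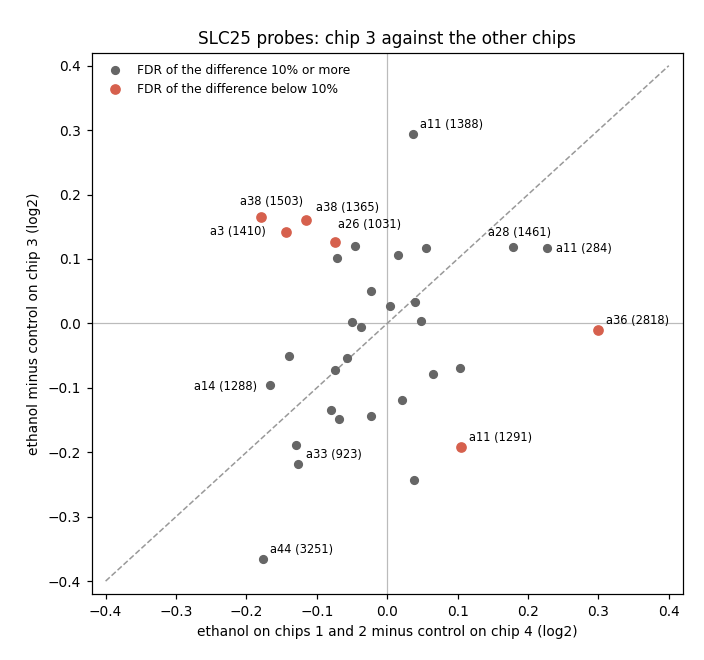
Each point is 1 of 33 tested SLC25 probes, placed by its difference on the log2 scale for chips 1 and 2 against chip 4 (horizontal) and on chip 3 (vertical), with the first base of the probe in brackets, the dashed line where both are equal, and orange where the 2 differ at an FDR below 10%. Slc25a44 lies at -0.18 and -0.37, whereas 4 orange points lie at opposite signs above and left of the origin.

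The proteins that surround these carriers were read from lists of genes with known roles. Over all arrays 16.9% of all tested genes were called, 8.33% higher and 8.67% lower. Of the carriers of the same fold under other symbols, Mtch1 was called higher by its dimmer probe (+0.20, adjusted p = 0.0824), and the probes of Ucp1, Ucp2, Ucp3 and Mcart6 were detected on 0 arrays. Of 8 tested genes for the import of carriers 0 were called higher and 1 lower (Tomm6, a subunit of the outer membrane pore, -0.20, adjusted p = 9.56e-04), with a median of -0.08. Of 13 tested enzymes that use carried metabolites 2 were called higher, Gpd2 (+0.28, adjusted p = 0.0351), of the glycerol phosphate shuttle, and Oat (+0.17, adjusted p = 0.00101), which consumes ornithine, with a median of 0.00. Of 5 tested genes of iron-sulfur and haem synthesis limma called 0 with the fold, and 1 had an unadjusted p below 0.05, the scaffold protein Iscu (-0.09, adjusted p = 0.0216).

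Of the other channels and carriers of mitochondrial membranes 10 genes were tested. On chip 3, where 10.4% of all tested genes were called lower and 9.82% higher, 6 of the 10 were lower, Letm1 (-0.29, adjusted p = 0.00944), Sfxn5 (-0.31, 0.0113), Cbara1 (-0.24, 0.0201), Sfxn3 (-0.23, 0.0385), Vdac1 (-0.19, 0.0583) and Vdac3 (-0.25, 0.0875), and Sfxn1 was higher (+0.26, 0.0474), with a median of -0.21. Over all arrays, where 8.67% of all tested genes were called lower, 2 were lower, Sfxn5 (-0.20, adjusted p = 0.0139) and Sfxn3 (-0.14, adjusted p = 0.0332), with a median of 0.00. Between chips 1 and 2 and chip 4 the median was 0.02, with Letm1 called higher (+0.18, adjusted p = 0.0161) and 0 lower.

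Single cell type markers were called too, where 8.33% of all tested genes were called higher over all arrays and 8.67% lower. Over all arrays 2 of 6 tested astrocyte markers were higher, Aqp4 (+0.52, adjusted p = 9.40e-04) and Slc1a3 (+0.17, 0.0525). Of 4 tested neuron markers Gad1, of inhibitory neurons, was higher (+0.30, 0.0138) and Slc17a7, of excitatory neurons, lower (-0.26, 0.00421). Of 7 oligodendrocyte markers Cldn11 was lower (-0.21, 0.0517) and Mbp higher by 1 of its 3 probes, not the brightest (+0.59, 0.00859), and of 5 endothelial markers Flt1 was higher (+0.18, 0.0352). Of 7 microglia markers limma called 0, with 2 at an unadjusted p below 0.05. It also called 0 of 3 tested red blood cell markers, with 1 at an unadjusted p below 0.05, and 0 of 3 tested olfactory bulb markers. The part of these markers in the differences of Slc25a28, Slc25a44 and the other carriers called over all arrays was not tested.

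On chip 3, where 9.82% of all tested genes were called higher and 10.4% lower, more markers were called. Of 7 tested oligodendrocyte markers 6 were called lower there and 1 higher, Mbp being called in opposite directions by different probes, with a median of -0.38, and their mean level was 10.7 to 10.92 with ethanol and 10.84 to 11.57 without. Of 6 tested astrocyte markers 3 were called higher (median +0.13), and their mean level, 11.18 to 11.28 against 11.01 to 11.1, did not overlap. Endothelial markers also did not overlap (8.85 to 9.01 against 8.74 to 8.81, 2 of 5 higher), and 2 of 3 tested olfactory bulb markers were higher (median +0.25). Of 3 tested red blood cell markers 1 was called higher (median -0.02). The mean levels of neuron markers (12.49 to 12.55 against 12.42 to 12.58) and microglia markers (8.63 to 8.78 against 8.66 to 8.81) overlapped, but single members were called. Gad1 was higher (+0.59, adjusted p = 9.37e-04) and Slc17a7 lower (-0.46, 9.37e-04) among 4 neuron markers, and C1qc was lower (-0.26, 0.0255) among 7 microglia markers. The part of these markers in the chip 3 differences of Slc25a44, Slc25a11 and Slc25a33 was not tested.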

How the data were processed

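Frontal cortex RNA of 32 mice was read on Illumina MouseRef-8 v2.0 arrays. The intensities, as the authors deposited them, are mean bead signals of each probe on a linear scale, not normalized between arrays. Beside each intensity stand further deposited values, namely a p-value of detection over the negative control beads and, of unit other, the standard error over beads and their number. Background step and scanner software are not given in the sources used here. After the study's methods, a variance-stabilizing transform was computed from the bead standard errors, followed by quantile normalization, which gives values on a log2 scale. Lumi itself was not run. The 10187 of 25697 probes detected (p-value below 0.01) on 24 arrays or more were compared by limma 3.58.1 in R 4.3.3, with p-values adjusted by Benjamini-Hochberg over all tested probes. Figures were drawn in Python 3.11.15 with matplotlib 3.10.9.

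A gene was called at an FDR below 1%, or below 10% with at least a 1.1-fold difference, if any probe was. Any member may be named, and full values are given for members called over all arrays or on chip 3 and for members whose chip 3 and between-chip differences differed at an FDR below 10%. The other genes named come from lists of genes of known role. Counts cover all members, of which 1 gene is not reported here by name or in the figures. A gene is described by its brightest tested probe unless another is named. The members and lists were chosen with earlier results of these data known. The fit called 195 of 200 simulated differences of 0.3 over all arrays and 94 of 200 on chip 3 at an FDR of 10%. Those simulations had independent noise, no chip or position effect and only 200 of 10187 probes changed. The share recovered in the data themselves may therefore differ. The files give no depth, and the number of arrays limits the precision. Alternatives were log2 of the signal, normexp (offset 16), median scaling, other detection filters, chip as a fixed or random block, position, array weights, and leaving out mouse C66 or each array of chip 3. Coordinates are not printed because the build of the array file is not stated, and chromosomes and overlapping genes come from RefSeq (GRCm38.p6), in which 40 of 40 symbols matched.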

Additional observations from a re-analysis of the deposited data

Results flagged for a closer look

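Of 75 groups of mice examined (15 probes by 5 groups of 1 chip and treatment), 5 held a mouse far from the others by Dixon's criterion, where chance gives about 1 in 20. For Slc25a11 at base 1388, mouse A49 was at 9.906 against 9.789 for the nearest ethanol-treated mouse of chip 3, and mouse C60 at 9.511 against 9.69 for the nearest control of chip 4. For Slc25a11 at base 1291, ethanol-treated mouse A50 of chip 3 was at 10.23 against 10.01. Slc25a28 was at 10.59 in control mouse C59 of chip 4, against 10.38. Slc25a42 was at 9.063 in control mouse C56 of chip 3, against 8.607.

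The ethanol difference on chip 3 departed from that of chips 1 and 2 against chip 4 at an FDR below 10% in 6 probes. Position enters this departure too, as treatment and position coincide on chip 3 only. By this difference of differences on the log2 scale, Slc25a38 was at 0.3438 (base 1503) and 0.2747 (base 1365), Slc25a3 at 0.2849 (base 1410) and Slc25a26 at 0.20. Slc25a36 was at -0.3098 and Slc25a11 at -0.2965 (base 1291). The controls of chip 3 and chip 4, which enter the same difference, lay apart in the opposite direction in each of these 6 probes, by 0.35 for Slc25a36 and 0.24 for Slc25a11 and by -0.21, -0.11, -0.19 and -0.15 for Slc25a38 (base 1503 and base 1365), Slc25a3 and Slc25a26.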

How the results depend on the processing

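No paired analysis was possible because the ethanol-treated and control mice share no replicate numbers. At an FDR of 1% over all arrays 2 SLC25 genes were called, 1 (Slc25a28, with Slc25a44 lost) with normexp, with all probes tested, with array weights or without mouse C66, 2 (Slc25a28 and Slc25a36) with position as a covariate, and 0 with median scaling or with chip as a fixed block, as a random block or as a fixed block with position. At 10% with 1.1-fold 7 were called, 3 with median scaling, 2 (Slc25a11 and Slc25a44) with chip as a fixed block, 4 (with Slc25a28 and Slc25a33) as a random block, 5 (without Slc25a14 and Slc25a33) with position and 0 with chip and position. Over all probes, median scaling made 88.5% of the calls higher with ethanol, against 51.3%. Between chips 1 and 2 and chip 4 the 8 genes became 4 with median scaling and 5 with all probes tested, the 5 of odd against even positions became 0 with median scaling, and the 5 that differed between chip 3 and the other chips became 2 with all probes tested. Leaving out 1 array of chip 3 gave 2 to 4 genes there.

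With chip as a fixed block each difference is that of chip 3, so the turns listed under it restate the chip 3 signs. Over all arrays Slc25a11 at base 1291 turned to -0.191 with chip as a fixed block, -0.0313 as a random block and -0.167 with chip and position, and Slc25a26 to 0.126, 0.0170 and 0.0621, and to 0.0330 with median scaling. With chip as a fixed block and with chip and position, Slc25a3 at base 1410 turned to 0.141 and 0.165, and Slc25a38 to 0.165 and 0.0552 at base 1503 and to 0.16 and 0.136 at base 1365. Slc25a36 turned to -0.0103 with chip as a fixed block, Slc25a14 to 0.136 and Slc25a3 at base 755 to 0.0637 with chip and position, and Slc25a3 at base 1410 to 0.0139 with median scaling. On chip 3 without 1 array, Slc25a36 ranged from -0.0431 to 0.0144 and Slc25a38 at base 1085 from -0.0295 to 0.102. The cause was not tested. The alternatives kept 223 of 284 values of single probes in direction and on their side of the threshold.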
